A study of Caenorhabditis elegans and Caenorhabditis briggsae
Caenorhabditis elegans with 146 samples.

Results

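Early embryos that lack the condensin subunit DPY-27 were compared with wild type N2 early embryos by mRNA-seq. The comparison uses 3 dpy-27(y56) libraries and 3 N2 libraries, that is 6 of the 146 samples of the series, chosen by their strain and stage labels alone. The homozygous dpy-27(y56) embryos came from strain MK4, in which the y56 allele is kept over the balancer qC1 with dpy-19(e1259) and glp-1(q339) and the transgene qIs26. That transgene carries rol-6(su1006), so animals with the balancer roll, and the homozygous embryos were taken by bleaching from non-rolling young adults. By this design mother and embryo should both lack the balancer and a functional dpy-27, and the rol-6 values given below bear on it. N2 is the wild type hermaphrodite strain, and both kinds of embryo are XX. Embryos of both groups were collected at once after bleaching, and the early embryo stage is given as fewer than 40 cells. As references of embryo age, 3 N2 comma libraries (embryos held for 4 h after bleaching) and 3 early and 3 comma libraries of mixed sex embryos of strain BS553 were used, which is fog-2(oz40) and gives XX and XO embryos. Further references were 2 libraries of heterozygous dpy-27(y56) early embryos of strain MK4, whose collection is not described, and 4 libraries of dpy-27 RNAi against 6 of control RNAi in N2 embryos of mixed stages. Every sample is a population of whole embryos of 1 strain. The study calls its replicates biological and pooled 2 to 3 collections for each, so the p-values measure the spread between such pools of embryos.

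In C. elegans, XX animals carry a pair of X chromosomes where XO males carry a single one, and in XX embryos a condensin-based machinery, the dosage compensation complex (DCC), sits on the X chromosomes and turns their output down. The complex holds a condensin built from DPY-27, MIX-1, DPY-26, DPY-28 and CAPG-1, and joins other proteins, among them SDC-2, which is needed for its recruitment to the X, and DPY-21 and DPY-30. It starts to load onto the X chromosomes during early cleavage, in the same hours in which maternally supplied mRNAs are degraded and the zygotic genome is switched on, and embryos at different ages were therefore used as references.

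The files give one FPKM value per gene and library (sequenced fragments relative to transcript length and to the reads mapped in the library). In the text, a log2 ratio is the difference between dpy-27(y56) and N2 means of log2(FPKM + 0.1) after the libraries were scaled to each other, and a gene is called higher or lower when limma gave a Benjamini-Hochberg adjusted p under 0.05. The ratios of genes near 0 FPKM are understated on this scale. Of 20411 genes, 10612 with a mean above 1 FPKM were tested, 1562 on the X and 9050 on the autosomes.

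Some libraries stood apart and bear on the results. The y56 allele left dpy-27 mRNA in place at 39.1, 40.1 and 59.7 FPKM in the mutant libraries against 56.7, 59.8 and 59.9 in N2. In FPKM the third mutant library therefore lay within the N2 range, while after scaling all mutant libraries were below all N2 libraries. The limma test of the targeted gene (log2 ratio -0.51, SE 0.17, adjusted p = 0.0406) was lost in 5 of the 6 fits that leave out a library. The cuticle collagen gene rol-6, the marker carried by the balancer transgene, had 0.437, 0.269 and 0.222 FPKM in N2 and 5.28, 1.15 and 23.3 FPKM in the mutant libraries, against 39.4 and 94.3 in heterozygous embryos. Mutant replicate 3 was thus the mutant library nearest to N2 in dpy-27 FPKM and had the most rol-6, and the main results are given with and without it. In rol-6 all 3 mutant libraries, not replicate 3 alone, were above every N2 early and comma library. What this means for the genotype of the mutant libraries was not tested. The steps between low FPKM values put the depth of the mutant libraries at 44.6%, 57% and 19.4% of N2 replicate 1, while the other N2 libraries were at 97.4% and 78.9%, so replicate 3 was also the shallowest, with 8336 genes listed at 0. The summed FPKM of 68 sperm genes was 31.6 to 50.2 in the mutant libraries and 130 to 303 in N2, and that of the vitellogenin genes 0.907 to 1.02 against 5.58 to 10.9. The heterozygous libraries were as low, at 31.5 to 40.7 and 1.06 to 1.19. In the tested sperm list, 30 of 36 genes were lower and none was higher, and 21 of the 68 were listed at 0 in every mutant library. These are transcripts of adult tissue, and their part in the results below was not tested.

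Many genes differed between the mutant and N2 embryos, and the split between higher and lower differed by chromosome. Of all genes tested, 48.2% were called, 26.3% higher (2793 genes) and 21.9% lower (2324 genes). The study itself reports that DESeq found no gene past an adjusted p of 0.05 in these dpy-27(y56) embryos. The reason for this difference from the limma calls was not tested. On the X, 848 of 1562 genes were higher (54.3%), 6.66% were lower and 610 did not pass the test. On the autosomes, 1945 genes were higher (21.5%), 2220 were lower (24.5%) and 4885 did not pass. The median log2 ratio was 1.00 on the X, and -0.21, -0.16, -0.20, -0.15 and 0.02 on chromosomes I to V in order. The X shift, the X median minus the autosomal median, was 1.15. Single libraries, each relative to the mean of the 6, had X shifts of 0.49, 0.83 and 0.45 in the mutant and -0.48, -0.39 and -0.82 in N2. The groups did not overlap, and the two-sided exact permutation test over all 20 assignments of the libraries gave p = 0.1, the smallest it can give for 3 against 3. Without mutant replicate 3 the X shift was 1.21 and 5612 genes were called, 937 higher on the X. Without N2 replicate 1, 55 X genes and 1314 autosomal genes were lower. With the age score described below as a covariate, limma called 0 genes, and 397 had p under 0.05 before adjustment. That score separates the groups without overlap (14.2 to 28.4 in the mutant and -26.9 to -16.3 in N2). With 6 libraries this fit therefore cannot tell age from genotype. The split of the calls depends on the scaling, since 54.6% of the calls were higher as reported, 66.2% (3125 higher, 1597 lower) without scaling and 65% (3097 higher, 1670 lower) with upper quartile scaling. Both of those moved the median of all genes from -0.04 to 0.10 or 0.11 on the log2 scale, and log2 ratios below are relative to the reported scaling.

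**Figure D1:**
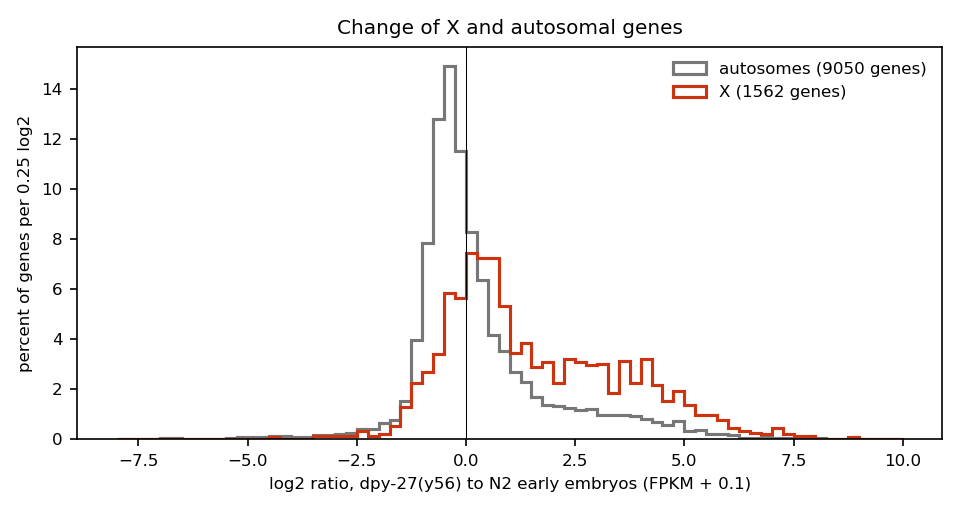
Distribution of the log2 ratio of dpy-27(y56) to N2 early embryos over 1562 X genes (red) and 9050 autosomal genes (grey), as the percent of genes per step of 0.25. The X genes lie to the right of the autosomal genes, with medians of 1.00 and -0.15, and both have a long tail of genes that were far higher in the mutant.

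The change ran largely in the direction of embryo age. To measure this without the N2 early libraries, genes that rise or fall with embryo age were taken from the mixed sex libraries, where at least a 2-fold change and an adjusted p under 0.05 from the early to the comma stage made 2419 tested autosomal genes age-rising and 2932 age-falling. In that comparison 42.8% of genes were higher and 38.2% lower at the comma stage, and in N2 embryos 45.3% and 39.4%. With the mean of the N2 early libraries set to 0% and that of the N2 comma libraries to 100%, the mutant libraries stood at 33.9%, 48.4% and 41.4% of the way. The N2 early libraries stood at 1.82%, 3.21% and -5.03%, and the heterozygous libraries of the same strain at 29.8% and 43.3%. All mutant libraries were thus above every N2 early library, and the heterozygous libraries lay in and just below the mutant range. On the scale of the 6 libraries alone the difference was 41.9 percentage points (SD within groups 6.45), with p = 0.1 in the two-sided exact permutation test, the smallest possible, and 41.6 without mutant replicate 3. Age-rising genes had moved further (37.4%, 52.8% and 44.3%) than age-falling genes (27.3%, 40% and 35.7%) in each mutant library.

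**Figure D2:**
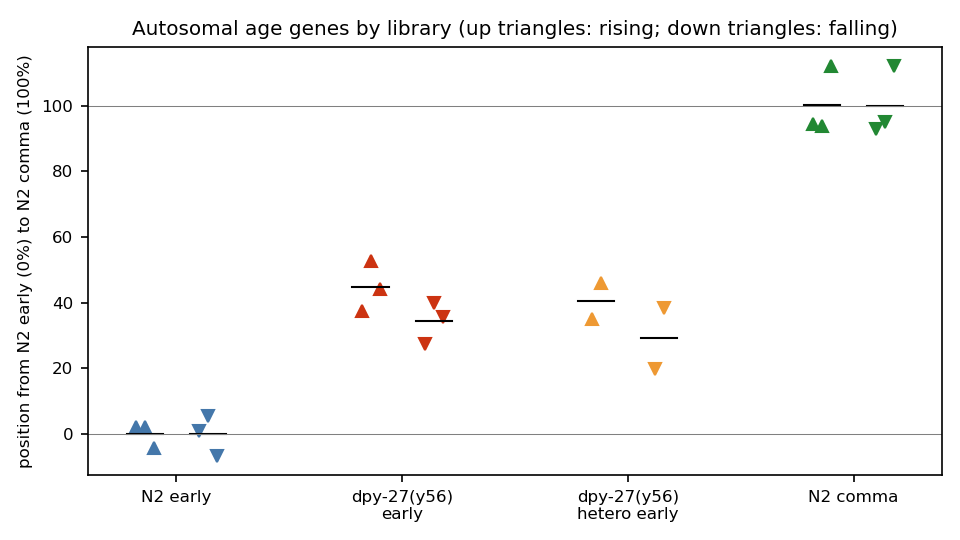
Position of each library on the path from N2 early (0%) to N2 comma (100%), from the median of 2419 age-rising (up triangles) and 2932 age-falling autosomal genes (down triangles), with group means as lines. The dpy-27(y56) libraries lie between 27.3% and 52.8%, above all N2 early libraries and beside the 2 heterozygous libraries of the same strain.

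Most of the genes called in the mutant changed in the direction of age. Among the autosomal genes, 1640 of the 1945 that were higher were age-rising (84.3%) and 12 were age-falling, while 26.7% of all autosomal genes tested were age-rising. Of the 2220 lower autosomal genes, 1634 (73.6%) were age-falling and 3 were age-rising, against 32.4% of all tested. On the X, 700 of 848 higher genes (82.5%) were age-rising, against 52.6% of all X genes tested, and 86 lower genes (82.7% of the lower ones) were age-falling, against 12.2%. Across 10226 genes, which are not independent replicates, the mutant log2 ratio and the mixed sex change from early to comma embryos, which share no library, had a Pearson correlation of 0.81 (Spearman 0.83). It was 0.79 over 8742 autosomal genes and 0.86 over 1484 X genes. The least squares line over the autosomal genes had a slope of 0.50 and an intercept of 0.32 on the log2 scale. The mixed sex early embryos had more of some tissue transcripts than N2 early embryos, such as 245 to 454 FPKM of the collagen sqt-3 against 26 to 54, so the age change of such genes is smaller in the mixed sex than in the N2 libraries.

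A larger share of the X genes than of the autosomal genes was age-rising, so the X was compared with the autosomes among genes of like age change. Among age-rising genes, 85.2% of 822 X genes were higher in the mutant against 67.8% of 2419 autosomal genes, with median log2 ratios of 2.79 and 1.79. In the change of N2 from early to comma embryos, which shares the N2 early libraries, the same genes had medians of 4.15 on the X and 3.63 on the autosomes. The X median minus the autosomal median of the age-rising genes was 0.91, 1.17 and 0.95 in the mutant libraries, 0.72 and 0.71 in the heterozygous libraries, and 0.47, 0.58 and 0.69 in the N2 comma libraries. While the mutant libraries stood at 37.4% to 52.8% of the path to the comma stage in age-rising genes, their X excess of 1.01 ± 0.14 (SD, n = 3) was above the 0.58 ± 0.11 (SD, n = 3) of N2 comma embryos without overlap (two-sided exact permutation test, p = 0.1, the smallest possible). It was also above the heterozygous libraries without overlap (two-sided exact permutation test, p = 0.1 over 10 assignments, the smallest possible). The heterozygous libraries, at 0.72 and 0.71, were themselves above all N2 comma libraries, so an excess over the comma stage was not particular to the mutant. How the X excess of N2 runs between the early and the comma stage was not tested. Age-falling genes differed little between X and autosomes, with medians of -0.60 and -0.62, while in N2 comma embryos they were at -2.96 and -2.20. For them the X minus autosome difference was 0.06, 0.06 and -0.01 in the mutant libraries.

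Genes whose expression barely changes with age gave a smaller X shift of the same direction. Within 0.5 log2 of no change in the mixed sex embryos, 227 X genes had a median log2 ratio of 0.18 and 1718 autosomal genes one of -0.09, a difference of 0.27 (SD within groups 0.11; two-sided exact permutation p = 0.1, the smallest possible). Of these, 22% of the X genes and 6.46% of the autosomal genes were higher in the mutant. When the genes were divided into 10 bins of age change, the X median was above the autosomal median in 9 bins, by 0.01 to 0.73, and 0.07 below it in the bin of genes that fell most with age. The mean difference weighted by the number of X genes was 0.37, against an overall shift of 1.15. Against heterozygous embryos of like age score the X shift was 0.30 over all genes (limma called 0 genes, with 297 at an unadjusted p under 0.05), and by bin the same difference ran from 0.11 to 0.30. After dpy-27 RNAi in mixed stage N2 embryos, dpy-27 mRNA was 26 to 36.9 FPKM, against 64.9 to 135 in control RNAi. There the X shift was 0.57 (two-sided exact permutation test over 210 assignments, p = 0.129), and limma called 0 genes, with 105 under 0.05 before adjustment. The X shifts of single libraries overlapped, at -0.06 to 1.06 after dpy-27 RNAi and -1.35 to 0.54 in control RNAi, where replicate 5 was the lowest. The RNAi medians followed the mutant calls on the X, at 0.67 for genes higher in the mutant, 0.25 for those that did not pass and -0.04 for those lower, and for the autosomal genes they were 0.13, -0.05 and -0.12.

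**Figure D3:**
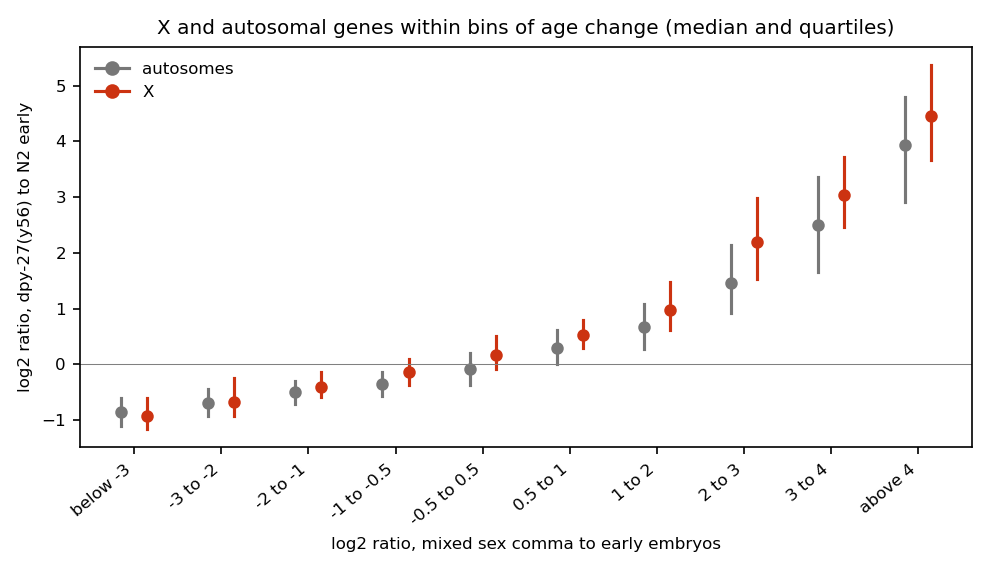
Median (point) and quartiles (line) of the log2 ratio of dpy-27(y56) to N2 early embryos for X (red) and autosomal genes (grey) in 10 bins of the mixed sex change from early to comma embryos. Both rise with the age change, and X lies above the autosomes in 9 bins, by 0.27 in the bin between -0.5 and 0.5 and by 0.73 in the bin between 2 and 3.

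The X median was above the autosomal median at each level of expression over 0.1 FPKM. By the level in mixed sex early embryos, the median log2 ratios of X and autosomal genes were 3.28 and 2.38 between 0.1 and 1 FPKM, 1.39 and 0.60 between 1 and 10 FPKM, 0.33 and -0.22 between 10 and 100 FPKM, and 0.21 and -0.50 above 100 FPKM. Below 0.1 FPKM, where only 49 X and 99 autosomal genes were tested, they were 3.66 and 3.58, with overlapping quartiles (2.41 to 4.34 and 2.20 to 4.48) and 57.1% and 55.6% of genes higher. When the tested X genes were divided by gene order into 5 equal parts, the medians were 0.77, 1.60, 1.59, 0.90 and 0.64. Relative to the autosomal line of age change, these parts were at 0.16, 0.33, 0.37, 0.31 and 0.17, against 0.27 for the whole X and -0.17 to -0.03 for the 5 autosomes.

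Several lists of maternally supplied and early zygotic genes had mostly lower members. Each list below is described by the number of tested members that were higher, lower or not past the test, to be read against 26.3% higher, 21.9% lower and a median of -0.04 over all genes tested. Of 15 maternal RNA-binding proteins of cell fate, 14 were lower and none was higher, with a median log2 ratio of -1.04 against -5.22 from N2 early to N2 comma. oma-1, which encodes a zinc finger protein of oocyte maturation, had 357, 319 and 394 FPKM in N2, 225, 178 and 146 in the mutant and 3.48 to 11.7 in N2 comma embryos. The mutant libraries thus lay between the early and the comma stage, without overlap (log2 ratio -1.12, SE 0.18, adjusted p = 0.00224). pie-1, a zinc finger repressor of transcription in germline blastomeres, had 318, 277 and 355 FPKM in N2 and 170, 133 and 106 in the mutant (log2 ratio -1.38, SE 0.19, adjusted p = 0.00123). spn-4, an RNA-binding regulator of maternal mRNAs, had 788, 698 and 1022 FPKM in N2 against 519, 373 and 354 in the mutant (log2 ratio -1.15, SE 0.20, adjusted p = 0.00328). All mutant values of both were under all N2 values and far above the comma values of at most 34.6 FPKM. Of 12 P granule components, 10 were lower and none was higher (median -0.93), among them the germline helicase gene glh-1 with 47.9, 45.5 and 62.2 FPKM in N2 and 19, 16.6 and 26.2 in the mutant (log2 ratio -1.48, SE 0.21, adjusted p = 0.00117).

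Genes of the cleavage divisions were also mostly lower. Among 23 mitotic kinases, cyclins and centrosome genes, 17 were lower and none was higher (median -0.56, N2 comma -2.67), and among 11 genes that license DNA replication, 10 were lower (median -0.67, N2 comma -3.50). The B-type cyclin cyb-3 went from 4555, 4711 and 4383 FPKM in N2 to 2645, 2305 and 2284 in the mutant (log2 ratio -1.06, SE 0.17, adjusted p = 0.00188), with 225 to 537 in comma embryos. Its groups did not overlap. The cell cycle phosphatase cdc-25.1 had 144, 128 and 165 FPKM in N2 and 73.3, 57.7 and 66.2 in the mutant (log2 ratio -1.29, SE 0.14, adjusted p = 0.000488). mcm-7, a subunit of the replicative helicase, had 1030, 965 and 808 FPKM in N2 and 584, 505 and 568 in the mutant (log2 ratio -0.90, SE 0.14, adjusted p = 0.00183). All mutant libraries of these genes were below all N2 libraries. Of 32 proteasome subunits, 30 were lower and none was higher (median -0.92, N2 comma -2.61). pbs-1, a subunit of the proteolytic core, had 1381, 1279 and 1393 FPKM in N2 and 629, 577 and 552 in the mutant (log2 ratio -1.35, SE 0.13, adjusted p = 0.00024). Of 7 tubulins 4 were lower and 2 were higher, and the neuronal beta tubulin tbb-4, an X gene, had 0.895, 0.823 and 0.391 FPKM in N2 against 21.3, 31.8 and 34.6 in the mutant (log2 ratio 5.09, SE 0.38, adjusted p = 0.000106).

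Early zygotic families had more lower than higher members. Of 17 T-box genes, 8 were lower and 1 was higher (median -1.02, N2 comma -5.37), and of 31 sdz genes, first described as zygotic genes that depend on the endomesoderm factor SKN-1, 19 were lower and none was higher (median -0.92, N2 comma -5.82). The T-box pair tbx-37 and tbx-38, which acts in early pharyngeal fate, was lower in both members. tbx-38 had 35.8, 40.5 and 36.5 FPKM in N2 and 20, 16.1 and 23.6 in the mutant (log2 ratio -1.07, SE 0.17, adjusted p = 0.00212) and at most 0.579 in the comma libraries. The early zygotic gene pes-10 had 164, 169 and 149 FPKM in N2 and 86.2, 56 and 78.7 in the mutant (log2 ratio -1.29, SE 0.17, adjusted p = 0.000893). In both genes the mutant libraries were below all N2 libraries. Of 7 tested endoderm specification genes, 1 was higher, 3 were lower and 3 did not pass the test. The GATA factor end-3 had 12.5, 9.39 and 13.6 FPKM in N2 and 8.37, 5.2 and 9 in the mutant (log2 ratio -0.81, SE 0.28, adjusted p = 0.0451, lost in 4 of the 6 fits without a library). The GATA factor elt-2, an X gene of gut differentiation and the higher member, had 5.78, 6.34 and 3.39 against 25.3, 24.7 and 17.5 (log2 ratio 1.99, SE 0.30, adjusted p = 0.0017). The paralog end-1, at 40.5, 53.9 and 30.4 FPKM in N2 and 29.1, 32 and 28.7 in the mutant, did not pass the test (adjusted p = 0.0564). Of 14 Notch signalling genes, 9 were lower and none was higher (median -1.04, N2 comma -3.69). The large F-box family, adaptors of ubiquitin ligases, had 10 genes higher, 50 lower and 130 not past the test (median -0.55, N2 comma -3.49). Its share of lower genes was near that over all genes, while its share of higher genes was below that over all genes. Without scaling 14 F-box genes were higher and 39 lower, and with upper quartile scaling 13 and 36. The Skp1-related skr genes had 2 higher, 10 lower and 5 not past the test, where 6 were lower without scaling and 5 with upper quartile scaling. Of 12 Argonaute genes, the small RNA effectors, 7 were lower and 2 were higher. In bulk embryos, fewer cells of a type and less RNA per cell cannot be told apart.

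Genes of differentiated tissues were higher, most of all those of epidermis and muscle. Of 7 epidermis markers, 6 were higher and none was lower (median log2 ratio 4.94, N2 comma 7.80), and the summed FPKM of that list was 1377 to 2183 in the mutant, 33.7 to 66.9 in N2 early and 7831 to 10988 in N2 comma libraries. One of the 6 is rol-6, the balancer marker. The cuticle collagen sqt-3 had 54, 42.2 and 26 FPKM in N2 and 1127, 1747 and 1185 in the mutant (log2 ratio 4.94, SE 0.29, adjusted p = 8.11e-05), with 6088 to 9080 in comma embryos. The mutant libraries lay far above all N2 early libraries and below all comma libraries. Of 7 muscle markers, 6 were higher (median 4.28, N2 comma 6.39). Body wall muscle myosin myo-3 had 0.407, 0.0887 and 0.265 FPKM in N2 early embryos, 18.2, 33 and 41.4 in the mutant and 116 to 185 in comma embryos (log2 ratio 6.36, SE 0.50, adjusted p = 0.000119). Of 5 gut markers, 4 were higher (median 2.50), among them the intestinal intermediate filament ifb-2 with 1.36, 1.33 and 1.06 FPKM in N2 and 17.4, 38.5 and 31.7 in the mutant (log2 ratio 4.23, SE 0.35, adjusted p = 0.000138). The neuronal markers were less uniform, with 3 of 7 higher, 1 lower and a median of 0.79. In the heterozygous libraries the summed muscle markers were 250 to 1632 and the epidermis markers 1046 to 4463, so they overlapped the mutant range and also reached beyond it.

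Cuticle collagens and hedgehog-related and transthyretin-like genes had more higher than lower members. For members on the X, the share to read them against is the 54.3% higher over all X genes. Of 63 tested cuticle collagens (col genes), 32 were higher and 7 were lower (median 1.69, N2 comma 1.99), and 10 of the 32 are among the 13 on the X. Of 43 hedgehog-related and patched-related genes, which in nematodes act in epidermis and cuticle, 30 were higher and 1 was lower (median 2.83, N2 comma 4.41), with 9 of the 10 X members higher. wrt-2, a hedgehog-related gene on the X, had 0.309, 0.19 and 0.432 FPKM in N2 and 38.2, 103 and 78.9 in the mutant (log2 ratio 7.29, SE 0.44, adjusted p = 8.6e-05). Its autosomal relative wrt-1 had 0.212, 0 and 0.0768 against 12.5, 30.9 and 35.7 (log2 ratio 6.99, SE 0.61, adjusted p = 0.000171). The groups of both genes were far apart. Of 25 transthyretin-like ttr genes, 17 were higher and 1 was lower (median 3.16, N2 comma 5.76). Of 39 neuropeptide genes of the flp and nlp families, 12 were higher, a share near that over all genes, 1 was lower and 26 did not pass the test. Of 20 cytochrome P450 genes 9 were higher and 1 was lower. Of 50 detoxifying ugt and gst genes 14 were higher, a share near that over all genes, and 1 was lower. Of 27 C-type lectin clec genes 7 were higher and 6 were lower, both near the shares over all genes.

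Transcription factor families had members in both directions. Of 33 ceh homeobox genes, 20 were higher and 5 lower (median 1.10, N2 comma 1.75). Of 131 nhr nuclear hormone receptors, 55 were higher and 2 lower (median 0.92), with 12 of the 16 on the X among the higher ones, against 54.3% higher over all X genes. Of 20 hlh genes, basic helix-loop-helix factors, 9 were higher and 5 lower. The homeobox gene ceh-22 of pharyngeal muscle had 0.283, 0.0341 and 0.12 FPKM in N2 and 7.19, 13.6 and 16.8 in the mutant (log2 ratio 5.62, SE 0.58, adjusted p = 0.000345). Lower hlh genes included hlh-25, a target of early Notch signalling, with 18.8, 15.8 and 22.1 FPKM in N2 and 7.48, 7.75 and 6.66 in the mutant (log2 ratio -1.49, SE 0.21, adjusted p = 0.00131). The epidermal GATA factor elt-3, an X gene, had 8.6, 10.3 and 3.64 FPKM in N2 and 58.8, 75.5 and 35.5 in the mutant (log2 ratio 2.82, SE 0.43, adjusted p = 0.00176). In the epidermal specification list 5 of 12 genes were higher and 2 lower, in the muscle and pharynx list 5 of 11 higher and 4 lower, and in the Wnt list 5 of 16 higher and 3 lower, or 8 higher and 2 lower without mutant replicate 3.

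A few families departed from the change with age. Among 16 tested heat shock genes, 13 were higher and 1 was lower, with a median log2 ratio of 4.09, above the 2.21 from N2 early to N2 comma and the 0.72 from early to comma in mixed sex embryos. The small heat shock protein hsp-16.41, a chaperone induced by stress, had 4.63, 5.2 and 2.1 FPKM in N2 early embryos, 33.3, 164 and 51.8 in the mutant, 52.7 and 8.17 in heterozygous and 3.96, 5.68 and 2.61 in N2 comma embryos. The mutant libraries exceeded every N2 library of both stages, with replicate 2 the highest and 1 heterozygous library within their range (log2 ratio 3.97, SE 0.60, adjusted p = 0.00165). The list median against heterozygous embryos was 0.77, and after dpy-27 RNAi -0.06. Other members, such as hsp-12.1 with 1.85, 0 and 1.76 FPKM in N2, 59.3, 148 and 87.4 in the mutant and 624 to 784 in comma embryos, lay between the 2 N2 stages. The cytosolic ribosomal protein genes departed in the other sense, since 73 of 77 were higher from N2 early to N2 comma (median 1.75) but 4 were higher and 5 lower in the mutant (median 0.05). That balance turned in other fits, with 13 higher and 5 lower without mutant replicate 3 (median 0.20), 10 and 4 without scaling and 7 and 3 with upper quartile scaling. A pair of paralogs in that list moved in opposite directions. The X gene rpl-25.1 had 301, 334 and 204 FPKM in N2 and 1079, 1473 and 706 in the mutant (log2 ratio 1.78, SE 0.30, adjusted p = 0.00258), and the autosomal rpl-25.2 had 876, 1033 and 923 against 509, 658 and 358 (log2 ratio -1.08, SE 0.23, adjusted p = 0.00707). Histone genes were mostly not past the test (53 of 69). The sperm list had a median of -4.24, lower than the -3.50 of N2 comma embryos, and its summed FPKM was below that of both N2 stages (55.7 to 63.6 in comma libraries). That sum was also below both stages in the heterozygous libraries (31.5 to 40.7). The vitellogenin genes vit-2 and vit-6 were lower in the mutant but higher in N2 comma than in N2 early embryos. Summed vitellogenin FPKM was low in the heterozygous libraries as well (1.06 to 1.19).

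**Figure D4:**
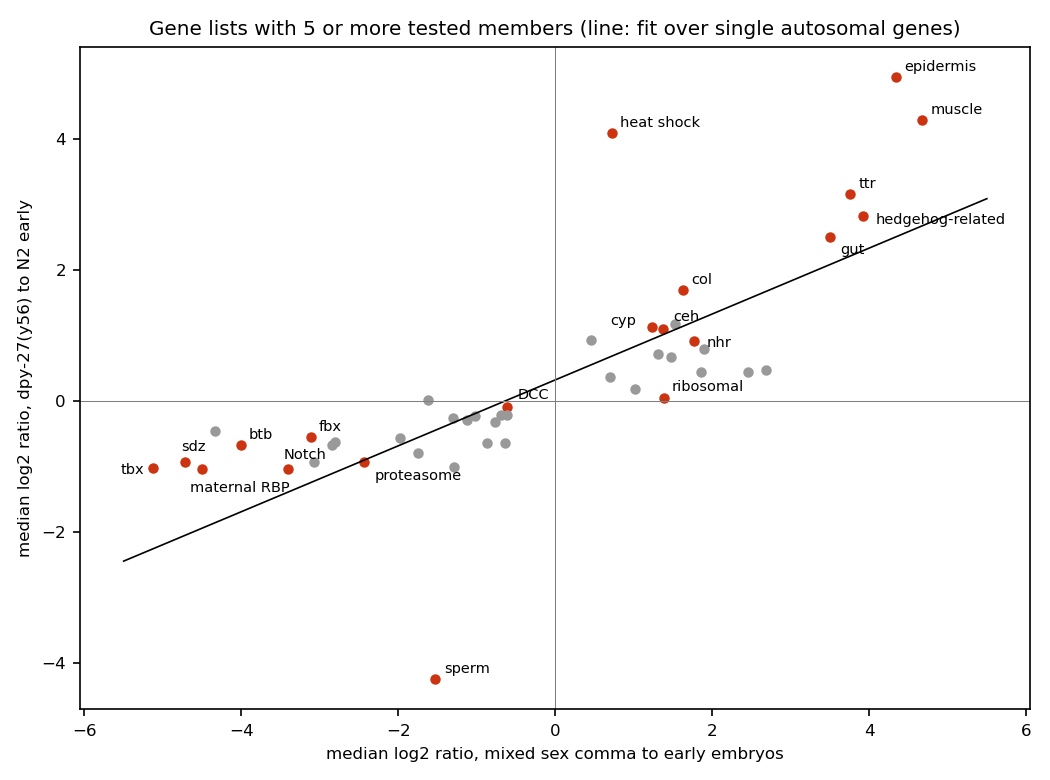
Median log2 ratio of each gene list with 5 or more tested members in dpy-27(y56) against N2 early embryos (vertical) and in mixed sex comma against early embryos (horizontal), with the line fitted to single autosomal genes. The list medians rise with the age change, with heat shock genes above the line at 4.09 and ribosomal proteins (0.05) and sperm genes (-4.24) below it.

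The X genes with the greatest rise were hardly expressed in N2 early embryos. The cuticle collagen col-165 had 0.149, 0.0508 and 0.0628 FPKM in N2 and 37, 143 and 128 in the mutant (log2 ratio 8.81, SE 0.55, adjusted p = 8.97e-05), with 60.1 and 754 in the heterozygous and 70 to 703 in the comma libraries. The mutant, heterozygous and comma libraries overlapped, far above N2 early. tni-1, a troponin I of muscle, had 0.7, 0.257 and 0.761 FPKM in N2 and 89.9, 143 and 163 in the mutant (log2 ratio 7.55, SE 0.40, adjusted p = 8.11e-05), and 282 to 423 in comma embryos. R02E4.3 was listed at 0 in all N2 early libraries and at 11.2, 35.3 and 40.3 FPKM in the mutant. The other 7 of the 10 greatest X rises were F53B1.4, C49F8.3, ZC374.2, T03G6.1, wrt-2, M03B6.3 and F09F9.2, with log2 ratios from 7.23 to 7.80. All 10 were also higher in N2 comma embryos than in N2 early embryos. That comparison shares the N2 early libraries over which these genes were picked, so it is no separate evidence of their change with age. None passed the test against heterozygous embryos, where no gene at all passed. X genes that were already expressed in N2 early embryos rose less. The microRNA Argonaute alg-1 had 40.6, 39.6 and 30.1 FPKM in N2, 124, 131 and 111 in the mutant and 211 to 333 in comma embryos (log2 ratio 1.59, SE 0.16, adjusted p = 0.000273). The polarity gene lgl-1 had 8.76, 9.23 and 7.11 FPKM in N2 and 24.7, 25.6 and 25.7 in the mutant (log2 ratio 1.45, SE 0.18, adjusted p = 0.000753). The histone H3.3 gene his-71 had 88.1, 90.3 and 57.9 against 263, 338 and 146 (log2 ratio 1.46, SE 0.32, adjusted p = 0.00797). In these genes no mutant library overlapped N2.

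Of the lower X genes, 72 had 10 to 100 FPKM and 14 had over 100 FPKM in mixed sex early embryos, while the greatest falls were of weakly expressed genes. The 5 greatest falls among non-overlapping X genes were C17H11.4, C10E2.5, vit-2, T22B2.2 and F19D8.2, with log2 ratios from -4.46 to -3.11, with at most 6.45 FPKM in N2, and 4 of the 5 listed at 0 in mutant replicate 3. vit-2, a yolk protein made in the adult intestine, had 1.9, 1.52 and 3.52 FPKM in N2, 0.168, 0.194 and 0.097 in the mutant and 9.55 to 14.9 in comma embryos (log2 ratio -3.29, SE 0.64, adjusted p = 0.00467). The mutant libraries were thus below both N2 stages, as were the heterozygous libraries at 0.103 and 0.137 FPKM. An X gene with a firm level that fell was the X signal element ceh-39, a homeobox gene that reports X number to the sex decision, with 154, 153 and 141 FPKM in N2 and 96.7, 81.9 and 93.8 in the mutant (log2 ratio -0.86, SE 0.11, adjusted p = 0.000945). In comma embryos it was at 7.74 to 12.3. Of 13 genes of the sex signal and sex determination, 8 were lower and none was higher (median -0.64), with 5 lower without scaling or with upper quartile scaling and 6 without mutant replicate 3.

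Most genes of the DCC itself did not pass the test. Of 10 genes, sdc-2 was higher, dpy-27, dpy-28 and dpy-30 were lower and 6 did not pass the test, with a list median of -0.10, which was 0.05 without scaling and with upper quartile scaling. Under those 2 scalings dpy-30 was the one lower gene, and the calls of dpy-27 (limma adjusted p = 0.132 and 0.129) and dpy-28 (0.158 and 0.124) were lost. sdc-2, the XX-specific recruiter of the complex and an X gene, had 28.4, 30.1 and 24.9 FPKM in N2 and 49.5, 40.8 and 45.3 in the mutant, without overlap (log2 ratio 0.56, SE 0.15, adjusted p = 0.0154), a call lost in 2 of the 6 fits that leave out a library. With age it fell, to 7.86 to 13.5 FPKM in N2 comma embryos. dpy-30, a subunit shared with histone methyltransferase complexes, had 1045, 998 and 949 FPKM in N2 and 833, 729 and 684 in the mutant (log2 ratio -0.56, SE 0.14, adjusted p = 0.0116). dpy-28 had 94.4, 84.6 and 101 against 79.1, 67.5 and 86.9 (log2 ratio -0.41, SE 0.13, adjusted p = 0.0366), so its groups overlapped in FPKM though not after scaling, and the call was lost in 4 of those fits. The other condensin subunits mix-1, dpy-26 and capg-1 had log2 ratios of 0.02, 0.07 and 0.06 with 95% confidence intervals of -0.23 to 0.27, -0.18 to 0.32 and -0.26 to 0.38. sdc-1 (-0.25), sdc-3 (0.10) and dpy-21 (-0.21) did not pass the test either.

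On the autosomes, the greatest rises were again of genes near 0 in N2 early embryos, and the greatest falls were of the nspd genes, which are in the sperm list, and the nspa genes, which are not. The cuticle genes col-74 and cut-3 had log2 ratios of 8.16 and 8.11, with cut-3 at 0.0391, 0.12 and 0.149 FPKM in N2 and 23.2, 93.4 and 92.5 in the mutant (SE 0.59, adjusted p = 0.000106). C35A5.11 and W07G4.1 were listed at 0 in all N2 early libraries. let-767, a steroid dehydrogenase gene, was listed at up to 7.38e-07 FPKM in N2 and at 14.1, 39.7 and 46.7 in the mutant, but also at no more than 0.00868 in the heterozygous libraries, values so near 0 that they may be failed estimates. The other 5 were C02E7.7, T04C12.1, C02E7.6, R12E2.15 and C06E7.88, with log2 ratios from 7.24 to 9.08. All 10 rose with age in N2 as well, in a comparison that shares the N2 early libraries over which they were picked. The 10 greatest falls were nspd-1, nspd-2, nspd-4, nspd-5 and nspd-7 and nspa-1, nspa-2, nspa-3, nspa-6 and nspa-7, small peptide families of which nspa-1 and nspa-3, and nspa-6 and nspa-7, were given equal values in every library, so near-identical copies share their reads there. nspd-7 had 36.2, 16.5 and 40.3 FPKM in N2, 0.653, 1.02 and 0 in the mutant and 1.92 to 2.87 in comma embryos (log2 ratio -6.14, SE 0.87, adjusted p = 0.00126). In the heterozygous libraries nspd-7 was at 1.35 and 0 FPKM, and in mixed sex early embryos at 4.56 to 9.19. nspd-1 was listed at 0 in all mutant libraries and at 22.3, 8.36 and 26.8 FPKM in N2. It was also at 0 in both heterozygous libraries and at 0.85, 0.903 and 0 FPKM in mixed sex early embryos. All 3 tested adenine nucleotide translocators were lower. The highest expressed, ant-1.1, whose protein exchanges ADP and ATP across the mitochondrial membrane, fell by 1.05 on the log2 scale (5870, 5696 and 5093 FPKM in N2 and 3202, 3201 and 2536 in the mutant), and ant-1.4 went from 22.8, 16.2 and 25.8 FPKM to 1.64, 0.396 and 0 (log2 ratio -5.69, SE 0.91, adjusted p = 0.00211). ant-1.4 was also at 0.393 and 0 FPKM in the heterozygous and at most 0.194 in the mixed sex early libraries. In nspd-1 and ant-1.4 the N2 early libraries were thus the ones that stood apart.

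Genes beside dpy-27 on chromosome III were looked at singly, since the y56 chromosome was kept apart in strain MK4. Of the 10 tested genes nearest in gene order, the adenylyl cyclase gene acy-3, cyp-25A3 and C44F1.1 were higher, the galectin gene lec-4 was lower and amx-1, toh-1, C36A4.10, mtm-3, cyp-25A1 and C36A4.11 did not pass. acy-3 had 0.185, 0.178 and 0.124 FPKM in N2, 2.84, 4.82 and 2.3 in the mutant and 16 to 21.9 in comma embryos (log2 ratio 3.53, SE 0.58, adjusted p = 0.00235). Each of the 4 moved in the direction of its change from N2 early to N2 comma, a comparison that shares the N2 early libraries.

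Some genes lay outside the range of both N2 stages. Called genes whose 3 mutant libraries were all above every N2 early and comma library made up 0.735% of the genes tested (78 genes), 32 on the X (2.05% of X genes) and 46 on the autosomes (0.508%). Called genes below every N2 library made up 2.20% (233 genes), 3 on the X and 230 on the autosomes. Without scaling, 75 X genes (4.8%) and 85 autosomal genes (0.939%) were above both stages and 1 and 98 below, and without mutant replicate 3, 73 X genes (4.73%) and 75 autosomal genes were above. The share was higher on the X in each case. Of the 78 genes, which were found on scaled values, 23 were also above all N2 libraries in both heterozygous libraries in unscaled FPKM. The 32 X genes had a median log2 ratio of 0.29 after dpy-27 RNAi, below the 0.48 over all tested X genes. For 45 of the autosomal genes above both stages it was -0.15, against -0.04 over all tested autosomal genes. The genes named here were chosen after their values were seen. T22B7.4, an X gene, had 21.2, 24.5 and 21.1 FPKM in N2 early, 59.7, 53 and 49.1 in the mutant, 37.6 and 37.1 in heterozygous and 30.2, 28.5 and 15.1 in N2 comma embryos (log2 ratio 1.13, SE 0.15, adjusted p = 0.00093). The heterozygous libraries lay between the mutant and both N2 stages. F46C8.3, also on the X, had 26.1, 30.9 and 15 FPKM in N2 early, 99, 102 and 83.7 in the mutant and 51.2, 50.2 and 32 in N2 comma embryos, while the heterozygous libraries, at 73.8 and 13.4, were far apart (log2 ratio 1.89, SE 0.26, adjusted p = 0.00115). taf-7.1, an X gene named for a subunit of the general transcription factor TFIID, had 23.9, 24.3 and 22 FPKM in N2 and 40.2, 39.9 and 42.1 in the mutant, against 7.91 to 15.1 in comma embryos (log2 ratio 0.66, SE 0.13, adjusted p = 0.00521). F23D12.5 had 23.1, 25 and 14.1 against 56.4, 51 and 39.7 (log2 ratio 1.12, SE 0.25, adjusted p = 0.00837), and it too fell with age in N2. In these 4 X genes the mutant rise ran beyond or against the change with age. Among the autosomal genes above both stages were the stress-induced hsp-16.1, hsp-16.11, hsp-16.2, hsp-16.41 and hsp-70, the hsp70-family genes F44E5.4 and F44E5.5, and rol-6. The hsp-16 pairs and F44E5.4 with F44E5.5 have near-identical copies, so their values are uncertain singly.

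**Figure D5:**
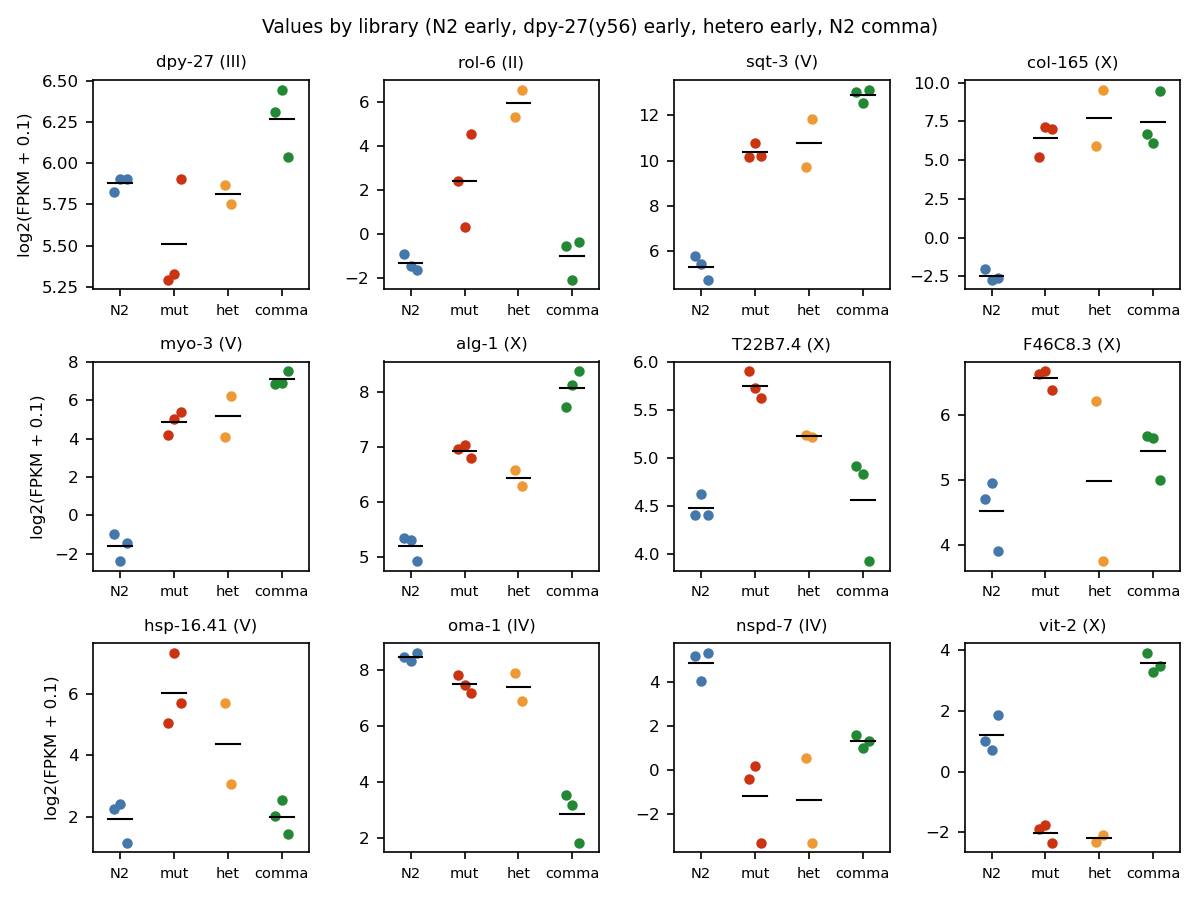
Values of 12 genes in each N2 early, dpy-27(y56) early (mut), heterozygous early (het) and N2 comma library as log2(FPKM + 0.1), points for libraries and lines for group means. sqt-3, myo-3, alg-1 and oma-1 in the mutant lie between the 2 N2 stages, T22B7.4, F46C8.3 and hsp-16.41 lie above both, and nspd-7 and vit-2 lie below both. In dpy-27 and rol-6 the third mutant library is the highest of the 3, and in rol-6 all 3 lie above both N2 stages.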

How the data were processed

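Poly(A) mRNA of early and comma embryos was sequenced by the authors as single-end 50 bp dUTP-stranded reads, aligned with TopHat to WS220, and gene levels were estimated with Cufflinks. The deposited values used here are FPKM, one column per library, and they carry no read counts. CASAVA 1.8, Cufflinks 2.2.0 and HTSeq 0.6.0 are named in the submitters' processing notes. Of 92 FPKM columns 27 were used and 65 were left out as belonging to other comparisons. Precision is limited by depth, of which only ratios between libraries could be recovered, from the steps of values between 0.01 and 0.25 FPKM.

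Scaling between libraries used the median ratio over the kept genes, log2(FPKM + 0.1) was taken, genes with a mean of the group means above 1 FPKM were kept, and groups were compared with limma 3.58.1 (R 4.3.3, trended variance, Benjamini-Hochberg adjustment), which was tested on simulated data. Printed FPKM values are unscaled. Of 20411 genes, 19904 were placed on a chromosome by name from a RefSeq table of another build, 507 were not placed and 38 were blank in a library used. Single values were compared by two-sided exact permutation tests over libraries. Alternatives were the pseudocount, the filter, the scaling, the variance trend, each library left out, a replicate block, the age score as a covariate and heterozygous embryos as the control. The members and gene lists were chosen with earlier results of these data known. The named genes were the 10 greatest rises and falls on the autosomes, the 10 greatest rises and 5 greatest falls on the X among genes whose groups did not overlap, the DCC genes, up to 4 called members of each list with the greatest change, and the 10 tested neighbours of dpy-27, and end-1, tbx-37, pes-10 and the genes outside both N2 stages were chosen after their values were seen.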

Additional observations from a re-analysis of the deposited data

How the results depend on the processing

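The number of genes changed, 5117, was 0 with heterozygous embryos as the control (297 at an unadjusted p under 0.05) and 0 with the age score as a covariate (397), and in both fits the counts of X and autosomal genes higher and lower were 0. The age score separates the mutant from the N2 libraries without overlap, so fits with it as a covariate cannot tell age from genotype. Leaving out a library gave 3520 (without N2 replicate 1) to 5612 (without mutant replicate 3). X genes higher ranged from 701 to 937 in these fits, X genes lower from 55 to 110, autosomal genes higher from 1450 to 2162 and autosomal genes lower from 1314 to 2405. X genes lower were 62 with a mean above 5 FPKM. The X shift of 1.15 was 0.81 with no filter, 0.88 above 5 FPKM, 0.30 against heterozygous embryos, 0.27 with the age covariate, 0.385 after subtraction of the autosomal line of age change, 0.27 in age-flat genes and 0.37 within age bins, the last 2 chosen after seeing the data, and 1.05 to 1.25 with a library left out. The age score difference of 41.9 was 2.65 against heterozygous embryos and 39.3 to 45.7 with a library left out. From early to comma, mixed sex embryos had 9111 genes changed (8498 to 9288) and N2 embryos 9767 (9211 to 9589). The cause of these differences was not tested. Of 86 named genes called, 71 kept the call in each of the 6 fits that leave out a library. The call was lost in 5 of them for dpy-27, in 4 for dpy-28, end-3, C10E2.5 and F19D8.2, in 3 for T22B2.2 and cyp-25A3, in 2 for sdc-2 and lec-4, and in 1 for dpy-30, C17H11.4, vit-6, rol-6, hsp-16.2 and hsp-70.

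Replicate numbers did not pair the libraries (correlations of deviations -0.06, 0.08 and 0.06), and with a replicate block 5217 genes changed, and 9025 in the mixed sex and 9629 in the N2 age comparison.

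With heterozygous embryos as the control, where no gene passed the test, the log2 ratio changed sign for dpy-28 (0.0025), col-165 (-1.53), R02E4.3 (-0.38), tni-1 (-0.12), M03B6.3 (-0.033), C02E7.7 (-1.12), col-74 (-1.39), cut-3 (-0.54), T04C12.1 (-0.20), C02E7.6 (-0.64), R12E2.15 (-0.61), nspa-1, nspa-2 and nspa-3 (2.00 each), elt-2 (-0.0099), end-3 (0.17), hlh-25 (0.71), pie-1 (0.072), spn-4 (0.16), ifb-2 (-0.38), myo-3 (-0.56), sqt-3 (-0.66), acy-3 (-0.37), rol-6 (-3.76), F44E5.4 (-0.076) and F44E5.5 (-0.072). With the age covariate, which cannot be told apart from genotype here and under which no gene passed the test, it did for dpy-28 (0.29), C10E2.5 (0.67), end-3 (0.97), elt-3 (-0.034), spn-4 (0.50), hsp-16.11 (-1.66), his-71 (-0.16), cyp-25A3 (-1.18), hsp-16.41 (-2.11), hsp-16.2 (-4.28), hsp-70 (-4.63), hsp-16.1 (-1.77), F44E5.4 (-1.43), F44E5.5 (-1.30) and rpl-25.1 (-0.053). List medians that changed sign against heterozygous embryos were T-box 0.076, sdz 0.20, F-box 0.58, bath and math 0.28, btb 0.13, clec -0.12, col -1.76, hedgehog-related -0.17, ttr -0.0072, nas -0.051, ins -0.43, flp and nlp -0.23, twk -0.096, gut -0.17, muscle -1.50, neurons -0.29 and epidermis -0.41. Without a filter these were bath and math 0.18, tubulins 0.69 and fatty acid enzymes -0.024, above 5 FPKM hlh -0.58 and clec -0.19, and with a library left out tubulins ranged from -1.07 to 0.49 (without mutant replicate 1).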
